A study of Mus musculus with 8 samples.

Results

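The genes examined were 41 genes of DNA replication and nucleotide supply, picked by gene symbol from a fixed list. All 41 were found among the 41325 gene symbols of the files, and all 41 were expressed, meaning an RPKM over 1 in at least 1 library, as were 11513 genes in all. RPKM is reads scaled to exon length and to the mapped reads of the library. The exon length that fits the values is that of all annotated exons of a gene joined. A level compared between genes therefore depends on this length too, and is no exact rank of transcript number. The cells were C3H10T1/2, a mouse mesenchymal stem cell line that can become fat cells. There were 4 lines, named shControl (given the genotype WT in the labels), shKDM4D, shNFIB and shMLL1. The last 3 stably express a short hairpin RNA (shRNA) against *Kdm4d* (a histone demethylase), *Nfib* (a transcription factor) or *Mll1* (a histone methyltransferase gene, listed as *Kmt2a*). They came from puromycin-resistant clones, and the labels do not name the clone that was sequenced. Each line was sampled at day 0, when the cells had been confluent for 2 days, and at day 5 of adipogenic differentiation. All 4 lines received the same induction in medium with fetal bovine serum, which was insulin, dexamethasone and isobutylmethylxanthine until day 2 and then insulin alone for 2 days. There was 1 RNA-seq library per line and day, so no difference within or between single lines has a replicate check, and a clone or culture cannot be told apart from the shRNA it carries.

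DNA replication is prepared in G1, when the origin recognition complex, Cdc6 and Cdt1 load the Mcm2 to Mcm7 helicase ring onto origins, a step called licensing. Cyclin E and its kinase then start S phase, Cdc45 and the GINS complex turn the ring into an active helicase, and polymerases, the sliding clamp Pcna and its loader RFC copy both strands. Ribonucleotide reductase, thymidylate synthase and thymidine kinase supply the deoxynucleotides. Many of these genes are known targets of E2F factors, which Rb family proteins hold silent in resting cells, and they are commonly used as a measure of how much a population is cycling. In a bulk library, fewer cycling cells and less RNA per cycling cell cannot be told apart.

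The promoters of these genes are shown first, because 13 of the 33 members with a RefSeq promoter window (GRCm38.p6, 250 bases before and 50 from the annotated start) held E2F site letters. The letters searched were TTTCCCGC, TTTCGCGC, TTTGCCGC and TTTGGCGC on both strands. They stood in the windows of *Orc1*, *Cdc6*, *Cdt1*, *Mcm3*, *Mcm5*, *Mcm6*, *Mcm7*, *Gins3*, *Rfc3*, *Pola1*, *Pold1*, *Lig1* and *Uhrf1*, which is 39.4% of the members with a window. Counted by gene in the same way, the share was 2.605% of all 27025 genes with a window and 4.83% of the 8881 expressed ones. Counted by window, it was 2.26% of all 32851 windows. The stretches below, with their flanks, belong to the 7 genes whose matches all lie before the RefSeq start used here. Capitals mark the E2F letters on either strand, overlapping matches being joined.
Orc1, chr4:108579407-108579454, plus strand: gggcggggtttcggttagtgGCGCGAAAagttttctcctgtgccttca
Cdc6, chr11:98907993-98908040, plus strand: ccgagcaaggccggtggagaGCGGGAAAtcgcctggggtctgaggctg
Mcm5, chr8:75109336-75109387, plus strand: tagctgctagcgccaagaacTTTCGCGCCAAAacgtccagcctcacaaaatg
Mcm6, chr1:128359725-128359835, minus strand: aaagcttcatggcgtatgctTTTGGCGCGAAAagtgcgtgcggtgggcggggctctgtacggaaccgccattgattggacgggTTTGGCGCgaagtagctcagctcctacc
Gins3, chr8:95633498-95633545, plus strand: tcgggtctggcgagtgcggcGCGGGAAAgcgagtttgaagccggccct
Pola1, chrX:93632266-93632313, minus strand: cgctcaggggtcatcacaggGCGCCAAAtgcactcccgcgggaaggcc
Uhrf1, chr17:56304108-56304155, plus strand: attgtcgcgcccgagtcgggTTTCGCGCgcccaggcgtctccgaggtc
In *Mcm5* and *Mcm6* a pair of matches on opposite strands overlaps, so that each holds a longer run of capitals. The first matched base lies 153 bases before the RefSeq start in *Mcm5*, 110 in *Mcm6* and 27 in *Orc1*. The GENCODE spans of *Orc1*, *Cdc6*, *Gins3* and *Uhrf1* begin further upstream, so their printed matches lie inside the gene span. The CCAAT box (CCAAT on both strands) was found in 21 of the 33 members, or 63.6%, and in 44.0% of expressed genes. The CHR element (TTTGAA on both strands), known from promoters of mitotic genes, was found in 4 of 33 members, or 12.1%, and in 14.4% of expressed genes. Of the 22 mitosis genes used for comparison, 19 had a window, and of these 1 held E2F letters, 17 a CCAAT box and 14 a CHR element. A match is a description of the letters in the window and no measure of binding. The RefSeq start was found inside a GENCODE transcript for 25 of the 33 members, and *Gmnn*, *Mcm4*, *Gins1*, *Gins2*, *Rfc2*, *Prim2*, *Pole* and *Ccne2* had no window.

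**Figure D1:**
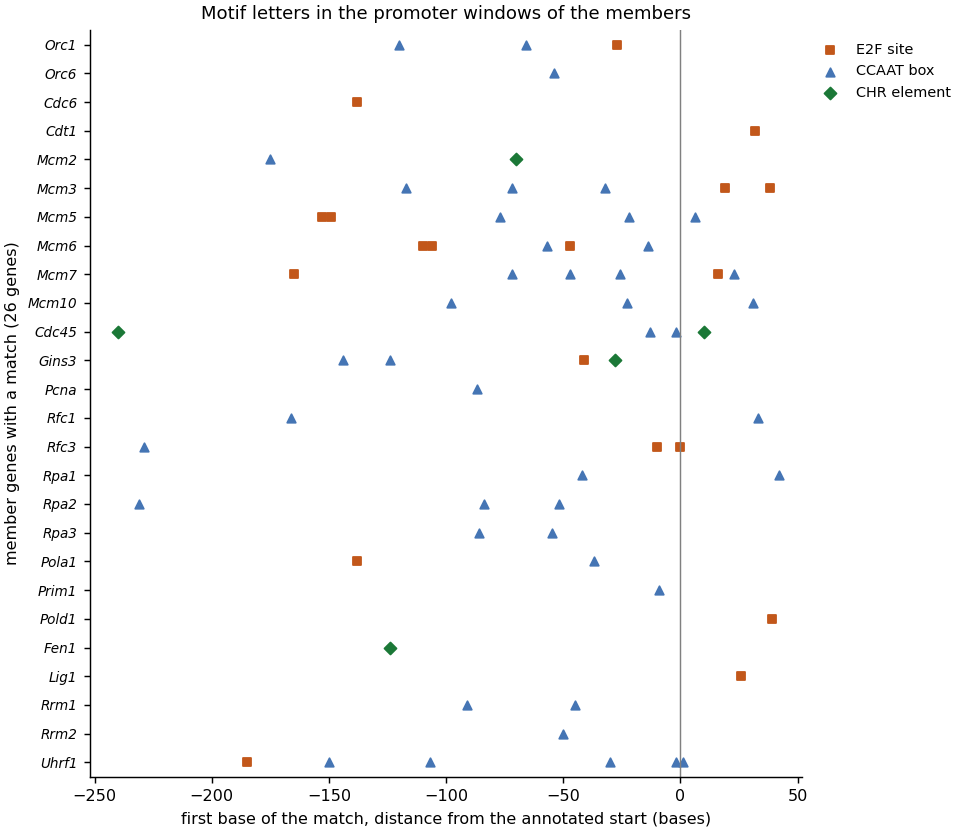
Position of motif letters in the promoter windows of 26 member genes with any match. The horizontal axis is the distance of the first matched base from the annotated start in bases, the vertical line is the start, and symbols mark E2F site letters, the CCAAT box and the CHR element. E2F letters were found in 13 of the 33 genes with a window and the CHR element in 4.

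As facts of the libraries, depth read back from the RPKM values was 15800000 to 38200000 mapped reads, and members held from 79 reads (*Gins1*) to 14141 reads (*Rrm1*) per library. The targeted genes were low in their own lines for *Nfib* (2.31 RPKM at day 0 and 3.38 at day 5 in shNFIB, 9.92 and 17 in shControl) and *Kmt2a* (2.00 and 1.63 in shMLL1, 5.17 and 5.27 in shControl). *Kdm4d* was at 0.235 RPKM or less in every library, which leaves few reads to judge its knockdown. The summed level of 10 adipocyte markers was 4.79 to 11.8 RPKM at day 0. At day 5 it was 829 for shControl, 43.2 for shKDM4D, 13.4 for shNFIB and 14.5 for shMLL1. Mesenchymal markers summed to 2185 to 2983 RPKM, although *Thy1* was at 0.14 RPKM or less in shKDM4D and shNFIB and at 11.1 to 25.0 in the other two lines. Lists of macrophage, endothelial, epithelial and skeletal muscle markers each summed to 1.81 RPKM or less in every library. Reads of the ribosomal RNA-like rows *AY036118* and *CT010467.1* took 7.95% to 10.5% of reads at day 0 and 3.07% to 3.62% at day 5.

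The members varied widely in level among themselves. *Pcna*, the sliding clamp, was highest in all 8 libraries, from 36.2 to 102 RPKM. *Pole*, the catalytic subunit of polymerase epsilon, was lowest in 7 libraries, at 1.29 to 5.02 RPKM, and *Orc1*, the largest origin recognition subunit, was lowest in shKDM4D at day 5, at 1.46 RPKM. The subunits of the Mcm2 to Mcm7 ring, which are present in equal number in the protein complex, differed by 2.29-fold to 3.93-fold within a library. *Mcm2* was always the lowest of them in RPKM and *Mcm3* or *Mcm4* the highest. The exon length of *Mcm2* was 6956 bases, and that of the other ring genes 3589 to 4666. In reads *Mcm5* was below *Mcm2* in every library, with 3392 and 5521 in shControl at day 0. The spread and the order of the ring genes thus depend on the length used. The median member was at 14.6 to 17.2 RPKM at day 0 and at 6.95 RPKM for shControl, 7.42 for shKDM4D, 11 for shNFIB and 9.0 for shMLL1 at day 5. The members together took 0.394% to 0.527% of reads at day 0. At day 5 they took 0.148% for shControl, 0.185% for shKDM4D, 0.228% for shNFIB and 0.236% for shMLL1.

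**Figure D2:**
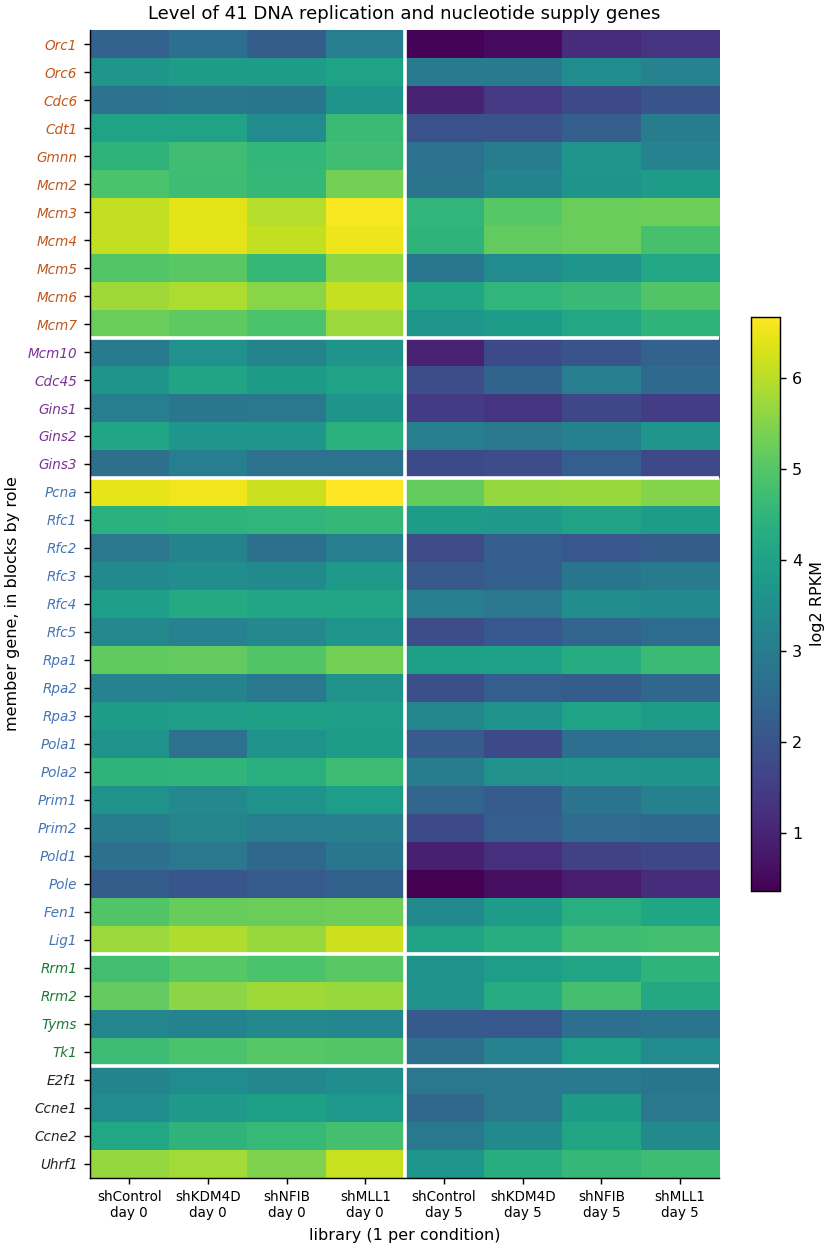
Level of the 41 genes in the 8 libraries as log2 RPKM, with the 4 day 0 libraries left and the 4 day 5 libraries right of the white line. Rows stand in blocks by role, in the order origin licensing, helicase activation, fork, nucleotide supply, and G1/S control and chromatin. *Pcna* is highest in every library, and 38 rows have all day 5 values below all day 0 values.

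The first comparison was day 5 with day 0 within a line. The members were lower at day 5 in every line, and least so in shNFIB. The median log2 ratio over the 41 members was -1.48 for shControl, -1.24 for shKDM4D, -0.79 for shNFIB and -1.13 for shMLL1, while the median over all expressed genes was 0.03, 0.03, 0.09 and 0.17. As linear values, the median member was 2.80-fold lower for shControl, 2.37-fold for shKDM4D, 1.73-fold for shNFIB and 2.19-fold for shMLL1. For 38 of 41 members the highest of the 4 day 5 values lay below the lowest of the 4 day 0 values, which was so for 15.1% of expressed genes. The exceptions were *Rpa3*, *Pola1* and *Ccne1*. In a fit over all expressed genes that paired the 2 days by line and took the 4 lines as replicates (limma on log2 of RPKM plus 0.1, Benjamini-Hochberg adjustment), 40 of 41 members were lower at day 5 at an adjusted p under 0.05, as were 21.0% of expressed genes. The exception was *Rpa3*, with a mean change of -0.21 (SE 0.13, adjusted p = 0.216 by limma). The lines are different knockdowns, so this fit speaks of their average and of no single line.

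In shControl, 34 of 41 members were lower by more than 2-fold, as were 8.56% of expressed genes. In shKDM4D the count was 29 (8.44% of expressed genes), in shNFIB 7 (4.96%) and in shMLL1 26 (6.89%). No member was higher by more than 2-fold in any line. At a limit of 1.5-fold the counts of lower members were 39 for shControl, 39 for shKDM4D, 30 for shNFIB and 39 for shMLL1. The share of expressed genes past 1.5-fold was not counted. An exact 95% interval of each ratio was computed from the read counts, and it covers counting error only. It lay below 0 for 41 members for shControl, 41 for shKDM4D, 39 for shNFIB and 40 for shMLL1, and for 36.7%, 36.1%, 31.5% and 34.5% of expressed genes. The count of 7 in shNFIB moved with the scaling, from 3 with 1 added to every RPKM to 37 relative to *Gapdh*, and relative to *Gapdh* the count in shKDM4D was 12. *Gapdh* itself went from 159 to 235 RPKM in shNFIB and from 326 to 236 in shKDM4D, and on its scale the median of all expressed genes was -0.48 in shNFIB and 0.50 in shKDM4D. Taken relative to all expressed genes, the members' median was -1.52, -1.27, -0.88 and -1.30 in the same order of lines, and this distance does not depend on *Gapdh*.

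The 11 origin licensing genes had the lowest ratios of the 5 roles in shControl, shNFIB and shMLL1, with medians of -1.74 for shControl, -1.45 for shKDM4D, -0.89 for shNFIB and -1.51 for shMLL1. *Mcm5*, a ring subunit (ENSMUSG00000005410.6, chr8:75109569-75128439 in GRCm38), was at 31.9 RPKM at day 0 and 7.16 at day 5 in shControl. It was at 33.6 and 10.6 in shKDM4D, 23.8 and 12.9 in shNFIB, and 48.6 and 17.8 in shMLL1. All 4 day 5 libraries were thus below all 4 day 0 libraries, shControl being lowest at day 5 and shNFIB lowest at day 0. The log2 ratio of *Mcm5* was -2.15 for shControl (interval -2.29 to -2.02), -1.66 for shKDM4D (-1.77 to -1.55), -0.89 for shNFIB (-1.01 to -0.77) and -1.45 for shMLL1 (-1.51 to -1.39). The intervals of the 4 lines do not meet.

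*Cdc6*, the ATPase that brings the helicase to the origin (ENSMUSG00000017499.15, chr11:98907801-98923940), was at 6.86 and 1.97 RPKM in shControl, 7.20 and 2.65 in shKDM4D, 7.09 and 3.42 in shNFIB, and 12.4 and 4.03 in shMLL1 at day 0 and day 5. Its log2 ratios were -1.80, -1.45, -1.05 and -1.63 in that order. Day 0 values of *Cdc6* lay close together except in shMLL1, which was the highest on both days. *Cdt1*, the partner of Cdc6 in licensing, had log2 ratios of -2.07, -2.06, -1.15 and -1.62. *Gmnn*, which encodes geminin, the inhibitor of Cdt1 (ENSMUSG00000006715.11, chr13:24751845-24761923), was at 22 to 26.8 RPKM at day 0 and at 6.57 for shControl, 8.24 for shKDM4D, 12.9 for shNFIB and 8.97 for shMLL1 at day 5. The ratio of *Cdt1* to *Gmnn* within a library ran from 0.373 in shNFIB at day 5 to 0.942 in shMLL1 at day 0, and in each line it was lower at day 5 than at day 0. *Orc1* was among the lowest ratios in shKDM4D (-2.13) and shMLL1 (-1.74), while *Orc6*, another origin recognition subunit, had the weakest ratio of the role in every line, at -0.77, -0.85, -0.42 and -0.86.

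Of the 5 helicase activation genes, *Mcm10*, which helps start the helicase, was 7.74 RPKM at day 0 and 1.92 at day 5 in shControl, 11.7 and 3.45 in shKDM4D, 9.12 and 3.98 in shNFIB, and 12.4 and 5.06 in shMLL1. Its log2 ratio was -2.01 for shControl (interval -2.20 to -1.83), -1.76 for shKDM4D (-1.90 to -1.63), -1.2 for shNFIB (-1.35 to -1.05) and -1.30 for shMLL1 (-1.39 to -1.21). *Mcm10* thus had the lowest ratio of its role in every line except shMLL1. There *Gins1*, a GINS subunit with the fewest reads of all members, had -2.12 (-2.37 to -1.87). The 3 GINS subunits did not move together: *Gins2* had -1.02, -0.80, -0.52 and -0.74 in the 4 lines and *Gins3* -0.93, -1.22, -0.46 and -0.97.

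The 17 fork genes had medians of -1.26, -1.05, -0.70 and -1.06 in shControl, shKDM4D, shNFIB and shMLL1. *Pcna* (ENSMUSG00000027342.14, chr2:132249162-132253314) was at 86.4 RPKM at day 0 and 36.2 at day 5 in shControl, 93.0 and 50.7 in shKDM4D, 71.6 and 52 in shNFIB, and 102 and 45.2 in shMLL1. Its log2 ratio was -1.26 (interval -1.34 to -1.18), -0.88 (-0.95 to -0.81), -0.46 (-0.54 to -0.38) and -1.17 (-1.23 to -1.12). The lowest day 0 value of *Pcna* and its highest day 5 value were both in shNFIB. *Pole* had the lowest fork ratio in shControl (-1.87) and shNFIB (-1.32), *Pold1*, the catalytic subunit of polymerase delta, in shKDM4D (-1.66), and *Lig1*, the ligase that joins Okazaki fragments, in shMLL1 (-1.44).

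Within complexes of the fork the subunits differed. *Rpa3*, the small subunit of the single-strand binding complex RPA (ENSMUSG00000012483.4, chr6:8255936-8259173), was at 14.5 and 9.56 RPKM in shControl, 14.9 and 12.1 in shKDM4D, 15.4 and 16.4 in shNFIB, and 14.6 and 14.2 in shMLL1. Its log2 ratio was -0.60 for shControl, -0.31 for shKDM4D, 0.09 for shNFIB (interval -0.14 to 0.32) and -0.04 for shMLL1 (-0.20 to 0.13), so the interval held 0 in the last 2 lines. The larger RPA subunits *Rpa1* and *Rpa2* were lower in every line, at -1.18 and -1.25 in shControl and -0.71 and -0.69 in shNFIB. In the clamp loader, *Rfc1* had ratios between -0.73 and -0.52 in the 4 lines, while *Rfc5* had -1.48 in shControl and -0.90 in shNFIB. *Pola1*, the catalytic subunit of the polymerase alpha and primase complex, stood out by its level in shKDM4D, at 6.58 RPKM at day 0 and 3.41 at day 5, where the other lines had 11.9 to 14.5 and 4.48 to 6.70.

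The 4 nucleotide supply genes had medians of -1.35, -1.23, -0.88 and -1.07. *Rrm2*, the small subunit of ribonucleotide reductase, which is made in S phase (ENSMUSG00000020649.11, chr12:24708241-24714146), was at 35.4 and 12.2 RPKM in shControl, 47.9 and 19.1 in shKDM4D, 54.6 and 27.9 in shNFIB, and 51.9 and 18.1 in shMLL1. shNFIB held the highest *Rrm2* value on both days. Its log2 ratio was -1.54 (interval -1.67 to -1.42), -1.33 (-1.43 to -1.23), -0.97 (-1.07 to -0.87) and -1.52 (-1.60 to -1.45). *Rrm1*, the large subunit, had smaller ratios of -1.15, -1.12, -0.79 and -0.61. The ratio of *Rrm2* to *Rrm1* within a library ran from 0.822 in shMLL1 at day 5 to 1.84 in shNFIB at day 0. *Tk1*, thymidine kinase, had the lowest ratio of the role in every line, at -1.99, -1.73, -1.16 and -1.56, and *Tyms*, thymidylate synthase, the weakest, at -1.11, -1.09, -0.67 and -0.48.

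The remaining 4 genes act at the G1/S boundary or on chromatin. *E2f1*, an activating E2F factor (ENSMUSG00000027490.17, chr2:154559407-154569892), was at 9.14 to 11 RPKM at day 0 and 7.04 to 7.63 at day 5, with log2 ratios of -0.32, -0.57, -0.37 and -0.64. In shControl this was the weakest ratio of all members. *Ccne1*, cyclin E1 (ENSMUSG00000002068.16, chr7:38097984-38107534), was at 10.8 and 5.66 RPKM in shControl, 13.8 and 7.33 in shKDM4D, 15.5 and 13.9 in shNFIB, and 13.2 and 7.28 in shMLL1. Its day 5 level in shNFIB was thus as high as the day 0 levels of the other lines. The log2 ratio of *Ccne1* was -0.93 in shControl, -0.91 in shKDM4D and -0.86 in shMLL1, and -0.16 in shNFIB with an interval of -0.31 to 0.00 that held 0. *Ccne2*, cyclin E2 (ENSMUSG00000028212.16, chr4:11191351-11204779), was at 17.8 and 7.61, 22.1 and 10.3, 24.2 and 17.3, and 28.1 and 10.2 RPKM in the same order. Its log2 ratios were -1.23, -1.11, -0.49 and -1.47. *Uhrf1*, which carries DNA methylation through replication, had -1.98, -1.49, -0.88 and -1.42.

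**Figure D3:**
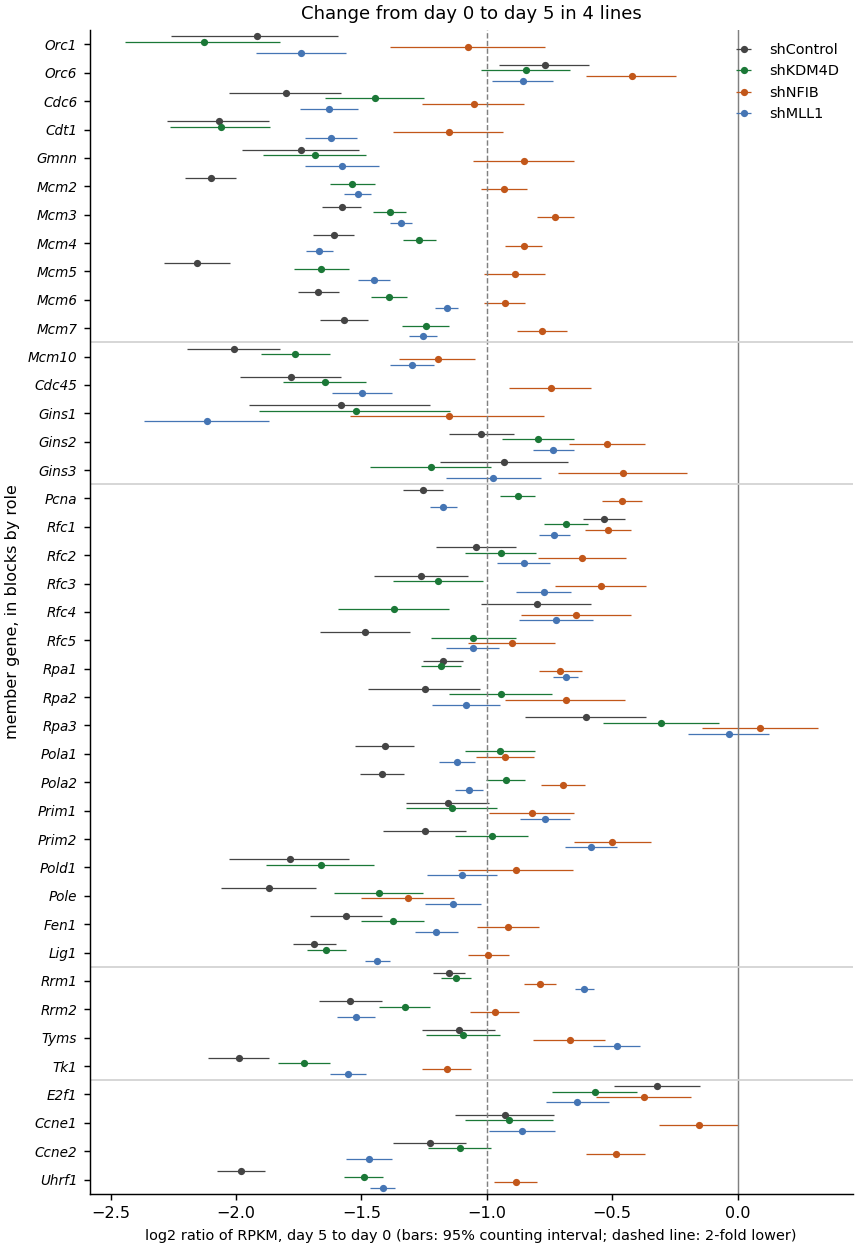
Log2 ratio of RPKM from day 0 to day 5 for each of the 41 genes in the 4 lines. Points are single-library ratios, bars are exact 95% counting intervals, the solid line is no change and the dashed line 2-fold lower. The shNFIB point is nearest to 0 for 34 of the 41 genes, a count that was not made over all expressed genes. *Rpa3* lies at or near 0 in shNFIB and shMLL1.

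By order of the lines, the ratio was nearest to 0 in shNFIB for 34 of 41 members, in shMLL1 for 6 (*Rpa1*, *Rpa3*, *Prim1*, *Pole*, *Rrm1* and *Tyms*) and in shControl for *E2f1*. The largest decrease was in shControl for 31 members, in shMLL1 for 6 and in shKDM4D for 4. This order was not counted over all expressed genes. Of those, 8.56% were more than 2-fold lower at day 5 in shControl and 4.96% in shNFIB. The rank of the members by their change was alike between lines, with Spearman correlations over the 41 genes of 0.676 (shNFIB and shMLL1) to 0.871 (shControl and shKDM4D). Over all expressed genes these ran from 0.727 to 0.866, and the genes of a library share its depth and its cells. The 13 members with E2F letters in the window had median log2 ratios of -1.69 for shControl, -1.45 for shKDM4D, -0.89 for shNFIB and -1.34 for shMLL1, and the 20 members without had -1.21, -1.11, -0.70 and -0.96. The ranges of both groups overlap, from -2.15 to -0.93 and from -2.10 to -0.32 in shControl.

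The second comparison set each knockdown line against shControl at day 0, before induction. No member differed by more than 2-fold in any knockdown line, where 6.24% of expressed genes did for shKDM4D, 9.00% for shNFIB and 9.09% for shMLL1. The median log2 ratio of the members was 0.13 for shKDM4D, 0.00 for shNFIB and 0.32 for shMLL1, beside 0.00, 0.03 and -0.07 over expressed genes. In shMLL1 the counting interval lay above 0 for 36 members and below 0 for none, against 28.4% and 40.2% of expressed genes. In shKDM4D it lay above 0 for 24 members and below for 7 (28.3% and 27.4%), and in shNFIB above for 10 and below for 14 (35.3% and 29.6%). Relative to *Gapdh* the median in shKDM4D turned to -0.27, while the median of all expressed genes moved to -0.40, and the median in shNFIB was 0.64 with all expressed genes at 0.67.

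In shMLL1 at day 0 all 11 licensing genes were higher with intervals above 0, from 0.29 for *Gmnn* to 0.86 for *Cdc6* (interval 0.75 to 0.97). *Mcm10* had 0.68 (0.60 to 0.77) and *Ccne2* 0.66 (0.57 to 0.74). The members with intervals that held 0 in shMLL1 were *Gins3*, *Rpa3*, *Prim2*, *Pole* and *Tyms*. In shNFIB each role held ratios on both sides of 0 except nucleotide supply, where all 4 genes lay above 0. *Cdt1* was at 10.7 RPKM in shNFIB and 16.4 in shControl, a log2 ratio of -0.62 (-0.76 to -0.48), and *Mcm5* had -0.42 (-0.50 to -0.34), *Mcm2* and *Mcm7* -0.34 each, *Mcm6* -0.21 and *Mcm3* -0.11. *Mcm4*, of the same ring, was at 68.2 RPKM in both lines. Against these, *Rrm2* had 0.62 (0.55 to 0.70), *Ccne1* 0.52 (0.38 to 0.67), *Ccne2* 0.44 (0.34 to 0.54) and *Tk1* 0.35 (0.28 to 0.42) in shNFIB. The same 4 genes were higher at day 0 in shKDM4D, at 0.43, 0.36, 0.31 and 0.19, and in shMLL1, at 0.55, 0.30, 0.66 and 0.28, and all of these intervals lay above 0. In shKDM4D the highest member was *Mcm10*, at 0.60 (0.50 to 0.69), and the lowest *Pola1*, at -0.85 (-0.95 to -0.75). The 3 ratios share the shControl library, and a value particular to that library would move all of them.

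The third comparison set the knockdown lines against shControl at day 5. All 3 medians lay above 0, at 0.33 for shKDM4D, 0.61 for shNFIB and 0.69 for shMLL1, beside 0.01, 0.09 and 0.07 over expressed genes. The interval lay above 0 for 27 members for shKDM4D (29.2% of expressed genes), 38 for shNFIB (40.4%) and 37 for shMLL1 (39.7%). More than 2-fold higher were 0 members for shKDM4D (1.88% of expressed genes), 6 for shNFIB (5.54%) and 6 for shMLL1 (5.25%), and none were more than 2-fold lower. For 31 of 41 members the lowest of the 4 day 5 values was in shControl. This was not counted over all expressed genes, and all 3 comparisons use the same shControl library. The shMLL1 count past 2-fold was 1 relative to *Gapdh*, and 3 with median-of-ratios scaling. The adipocyte marker sum given above was lower in all 3 knockdown lines than in shControl at day 5, and its part in these differences was not tested.

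The 6 members past 2-fold in shNFIB were *Ccne1*, *Cdc45*, *Rrm2*, *Ccne2*, *Tk1* and *Mcm10*. *Ccne1* was highest, with a log2 ratio of 1.30 (interval 1.09 to 1.5), followed by *Cdc45*, the helicase activator, at 1.21 (0.98 to 1.43), *Rrm2* at 1.20 (1.06 to 1.34), *Ccne2* at 1.18 (1.03 to 1.34), *Tk1* at 1.17 (1.04 to 1.31) and *Mcm10* at 1.05 (0.84 to 1.26). *Gmnn* lay just under the limit at 0.97 (0.70 to 1.24). The 6 members past 2-fold in shMLL1 were *Mcm10* at 1.39 (1.21 to 1.58), *Mcm5* at 1.31 (1.18 to 1.45), *Cdt1* at 1.07 (0.86 to 1.28), *Mcm2* at 1.05 (0.94 to 1.15), *Uhrf1* at 1.04 (0.94 to 1.14) and *Cdc6* at 1.03 (0.81 to 1.26). *Mcm10* was past 2-fold in both lines, and 5 others in each line were past it there and not in the other. In shKDM4D *Mcm10* was again the highest, at 0.84 (0.63 to 1.05), then *Mcm4* at 0.68 and *Rrm2* at 0.65.

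Because both lines were set against the same shControl library, they were also set against each other at day 5. The ratio of shNFIB to shMLL1 does not use shControl, and its median over the 41 members was -0.08. By role it was -0.22 for origin licensing, 0.20 for helicase activation, -0.08 for the fork, 0.16 for nucleotide supply and 0.44 for G1/S control and chromatin. *Ccne1* was higher in shNFIB by a log2 ratio of 0.93 (0.77 to 1.09), *Ccne2* by 0.77 (0.64 to 0.89), *Rrm2* by 0.63 (0.52 to 0.73), *Cdc45* by 0.54 (0.37 to 0.71) and *Tk1* by 0.46 (0.35 to 0.56). Of the genes past 2-fold in shMLL1, *Cdt1* had -0.77 (-0.98 to -0.56), *Mcm5* -0.47 (-0.58 to -0.35), *Mcm10* -0.35 (-0.50 to -0.20), *Cdc6* -0.24 (-0.44 to -0.04), *Mcm2* -0.22 (-0.31 to -0.13) and *Uhrf1* -0.16 (-0.25 to -0.08). The sign of these ratios follows from how the genes were picked and is no separate result. All but *Mcm10* had been past 2-fold over shControl in shNFIB or in shMLL1 and not in both. In size the ratios were more than counting error and less than 2-fold. Both stood above shKDM4D, with medians of 0.37 for shNFIB to shKDM4D and 0.42 for shMLL1 to shKDM4D.

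**Figure D4:**
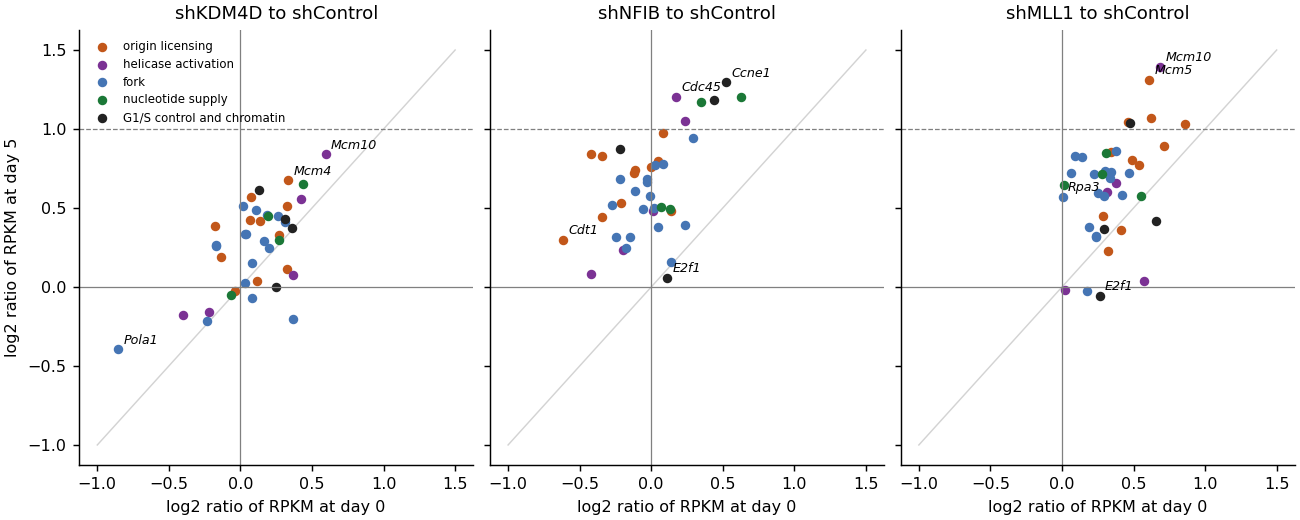
Log2 ratio of each knockdown line to shControl at day 0 (horizontal axis) and day 5 (vertical axis) for the 41 genes, coloured by role. The grey diagonal marks an equal ratio on both days and the dashed line 2-fold higher at day 5. In shNFIB 40 of 41 genes lie above the diagonal, in shKDM4D and shMLL1 34 each.

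The fourth comparison was the difference between a knockdown line and shControl in the change from day 0 to day 5, with an approximate interval from the 4 read counts. The median difference was 0.19 for shKDM4D, 0.71 for shNFIB and 0.29 for shMLL1, beside 0.01, 0.07 and 0.15 over expressed genes. The difference was above 0 for 34, 40 and 34 of 41 members, as it was for 51.6%, 55.9% and 63.9% of expressed genes. Its interval lay above 0 for 19, 37 and 26 members, and for 21.6%, 31.8% and 42.4% of expressed genes. A difference above 1 was reached by 0 members for shKDM4D (2.81% of expressed genes), 4 for shNFIB (7.05%) and 0 for shMLL1 (9.83%). The 4 were *Mcm5* at 1.26 (1.09 to 1.44), *Mcm2* at 1.17 (1.03 to 1.30), *Uhrf1* at 1.09 (0.97 to 1.22) and *Cdc45* at 1.03 (0.78 to 1.29). The licensing genes had a median difference of 0.84 in shNFIB. Against shControl their median log2 ratio there was -0.12 at day 0, with 7 genes below 0 and 4 above. At day 5 it was 0.74, with all 11 above 0. *E2f1* was the one member with a difference below 0 in shNFIB, at -0.05 (-0.30 to 0.20). In shKDM4D the decrease was larger than in shControl, with the interval below 0, for *Rfc1*, *Rfc4* (-0.57) and *E2f1*, and in shMLL1 for *Gins1* (-0.54), *Rfc1*, *E2f1* and *Ccne2* (-0.24).

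The other genes of these pathways were read from 4 lists of 90 genes, of which 89 were expressed. They were lower at day 5 as well, with median log2 ratios of -0.97 for shControl, -0.92 for shKDM4D, -0.53 for shNFIB and -0.83 for shMLL1. More than 2-fold lower were 43, 40, 20 and 37 of them, beside 8.56%, 8.44%, 4.96% and 6.89% of all expressed genes. More than 2-fold higher were 0, 0, 0 and 2. Among 19 other licensing and firing genes, *Recql4*, a helicase of origin firing, had -2.38 in shControl and *Clspn*, a fork checkpoint adaptor, -2.03. *Orc3*, an origin recognition subunit, was higher at day 5 in every line, at 7.32 and 9.39 RPKM in shControl. Among 25 fork and chromatin assembly genes (24 expressed) *Chtf18*, of an alternative clamp loader, had -2.12 and *Hells*, a chromatin remodeller, -2.08 in shControl, while *Top1*, topoisomerase I, had 0.42. Among 22 nucleotide supply genes, the 2 past 2-fold higher were *Samhd1*, which degrades deoxynucleotides, at 1.29, and *Tk2*, the mitochondrial thymidine kinase, at 1.07, both in shMLL1. Among 24 G1/S control genes *E2f7*, a repressing E2F factor, had -2.23, -1.80, -2.10 and -2.42 in the 4 lines, so that its decrease in shNFIB was close to that in shControl.

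At day 5 the other pathway genes were higher than in shControl by a median log2 ratio of 0.19 for shKDM4D, 0.50 for shNFIB and 0.40 for shMLL1, and 1, 11 and 6 of the 89 expressed were past 2-fold, beside 1.88%, 5.54% and 5.25% of all expressed genes. *Dbf4*, the activator of the Cdc7 kinase that fires origins, had 1.57 in shNFIB and 1.09 in shMLL1. *Fbxo5*, an inhibitor of the anaphase-promoting complex, had 1.29 in shNFIB and 0.70 in shKDM4D. *Dscc1*, of the same alternative clamp loader as Chtf18, had 1.30 in shMLL1, and *Dut*, which removes dUTP, had 1.06 in shNFIB. *Pole4*, a small polymerase epsilon subunit, was lower in all 3 knockdown lines at day 5, at -0.75, -0.45 and -0.56.

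The 22 mitosis genes differed from the replication genes in their medians at day 0 and, for shKDM4D and shNFIB, in the difference of changes. At day 0 they were higher than in shControl in every knockdown line, with medians of 0.62, 0.69 and 0.59. The replication members had 0.13, 0.00 and 0.32. Intervals lay above 0 for 22 of 22 mitosis genes in each line, and for 28.3%, 35.3% and 28.4% of expressed genes. All 3 ratios share the shControl library of day 0. *Cenpf*, a centromere protein of G2 and M phase, was at 9.20 RPKM in shControl at day 0 and at 24.0, 19.9 and 15.4 in shKDM4D, shNFIB and shMLL1. From day 0 to day 5 the mitosis genes had medians of -1.29 for shControl, -1.66 for shKDM4D, -1.26 for shNFIB and -1.17 for shMLL1. Their difference of changes was -0.37, 0.03 and 0.30 in the knockdown lines, against 0.19, 0.71 and 0.29 for the replication members. In shNFIB, then, the smaller decrease was measured in the replication genes and not in the median of the mitosis genes, of which 8 had an interval above 0 and 5 below. An interval above 0 was found for 31.8% of expressed genes. At day 5 both groups were above shControl in all 3 lines, the mitosis genes by 0.33, 0.71 and 0.70.

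**Figure D5:**
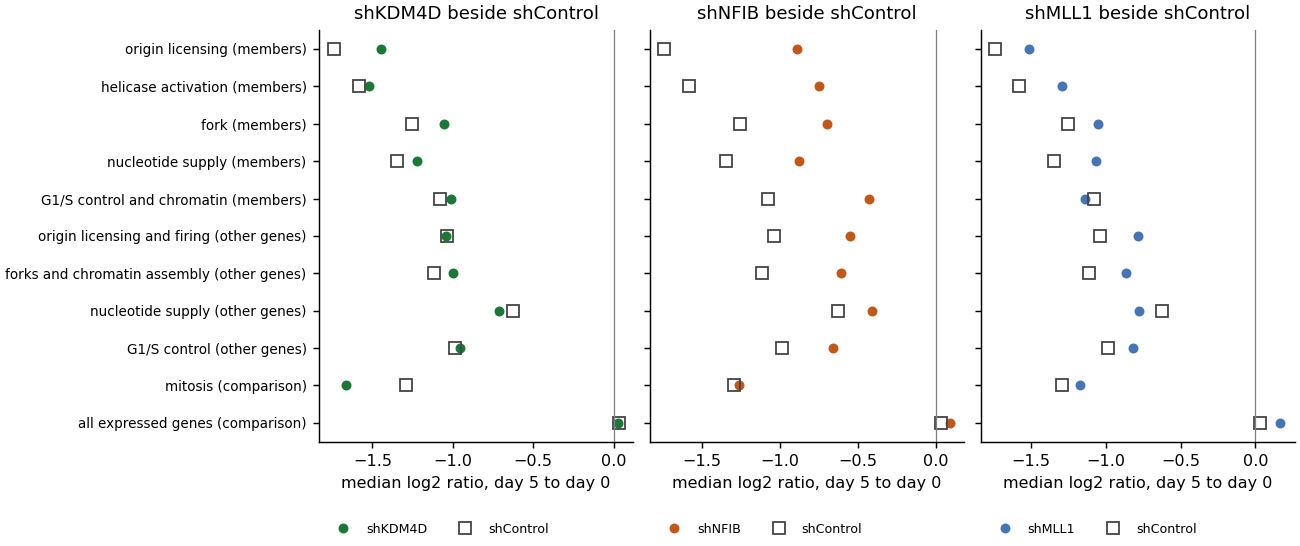
Median log2 ratio from day 0 to day 5 by gene group, for each knockdown line (filled circles) beside shControl (open squares). Groups are the 5 roles of the 41 members, the 4 lists of other pathway genes, the 22 mitosis genes and all expressed genes. In shNFIB the circles of the members lie right of the squares, while those of the mitosis genes (-1.26 and -1.29) nearly coincide.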

How the data were processed

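RNA from 8 samples was sequenced by the authors (SMARTer library kit, HiSeq), mapped to GRCm38 (mm10) and quantified in CLC Genomics Workbench 11.0.1. The deposited values are RPKM per gene symbol, which the authors scaled to the mapped reads of each library. The annotation release is not given in the sources used here. The files show no sign of the quantile normalization described in the study's methods.

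Members were matched by symbol to GENCODE M21. RPKM times exon length times depth gave whole reads (within 0.02) for 96.2% to 96.6% of the values tested and for 40 of 41 members. For *Pola2*, whose exon length did not match, intervals are approximate. Values are log2 ratios of RPKM with no pseudocount. Expressed genes had an RPKM over 1 in at least 1 library. Calls used a limit of 2-fold. The exact (Clopper-Pearson) 95% intervals come from the reads of the libraries compared and cover counting error only, since PCR copies are not independent molecules. The intervals were defined for 11448 expressed genes with a gene model. With 1 library per condition no comparison within or between single lines has a p-value. Day 5 was also compared with day 0 over the 4 lines, with the line as block, by limma 3.58.1 (trend, log2 of RPKM plus 0.1, all expressed genes). Interval and limma scripts were tested on simulated data. Python 3.11.15, numpy 2.4.6, pandas 2.3.3, scipy 1.17.1, matplotlib 3.10.9 and R 4.3.3 were used.

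The members, roles, other pathway genes, mitosis genes and markers were chosen with earlier results of these data known. All members could be named. Values in full were given for the highest and lowest of each role, for *Pcna*, *Mcm5*, *Cdc6*, *Rrm2*, *Ccne1*, *Ccne2* and *Gmnn*, and for members past 2-fold in 1 knockdown line. Of the other lists the 2 highest and 2 lowest could be named. Alternatives were other filters, pseudocounts of 0.1 and 1, quantile and median-of-ratios scaling, *Gapdh*, totals without the rows *AY036118* and *CT010467.1*, a limit of 1.5-fold and protein-coding genes only. The values of 1 pathway gene are not reported here.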

Additional observations from a re-analysis of the deposited data

Results flagged for a closer look

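Some members lay below shControl at day 0 and above it at day 5, with both counting intervals off 0, so that the knockdown difference had opposite signs on the 2 days. The values are the day 5 log2 ratio minus the day 0 log2 ratio. The difference was not tested, since each condition is 1 library, and the lines share the shControl libraries. Such sign changes were not counted over all expressed genes, so the counts below cannot be read as particular to the members.

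In shKDM4D this was seen for 4 members. The value was 0.56 for *Mcm2*, 0.33 for *Mcm7*, 0.43 for *Rfc5* and 0.44 for *Pole*. The day 0 ratios behind them were between -0.18 and -0.14 and the day 5 ratios between 0.19 and 0.39.

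In shNFIB it was seen for 13 members, most of them of the helicase ring and the fork. Of all expressed genes, 29.6% had an interval below 0 at day 0 in shNFIB. Separately, 40.4% had an interval above 0 at day 5. Of the licensing genes, *Mcm5* had 1.26, *Mcm2* 1.17, *Cdt1* 0.92, *Mcm3* 0.85, *Mcm7* 0.79 and *Mcm6* 0.74. Of the fork genes, *Pold1* had 0.90, *Pcna* 0.79, *Pola2* 0.72, *Rpa2* 0.56, *Rpa1* 0.47 and *Rfc2* 0.42, and *Uhrf1* had 1.09. The day 0 ratio was lowest for *Cdt1*, at -0.62, and the day 5 ratio was highest for *Uhrf1*, at 0.87. In shMLL1 there were 0 such members.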

How the results depend on the processing

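All medians and counts of the members kept their values within the counting error or within 1.5 times without a filter, with a filter at an RPKM over 2 and with 0.1 added. With 1 added, the day 5 to day 0 median was -1.30 in shControl and -1.01 in shMLL1, and the counts past 2-fold were 3 for shNFIB and, against shControl at day 5, 2 for shMLL1. Quantile normalization gave 11 lower members in shNFIB and a median of -1.29 in shMLL1, median-of-ratios scaling 12, -1.30 and, at day 5, 3 higher members in shMLL1, and totals without the ribosomal RNA-like rows 11 and -1.25. The day 5 to day 0 median of all expressed genes in shMLL1 was 0.17 as reported and -0.10, 0.00 and 0.05 under these 3 scalings. Relative to *Gapdh*, the day 5 to day 0 medians were -0.77 in shKDM4D (12 lower members), -1.35 in shNFIB (37) and -1.25 in shMLL1. At day 0 they were -0.27 (sign turned) in shKDM4D, 0.64 (3 higher members) in shNFIB and 0.11 in shMLL1, and at day 5 0.33 (1 higher member) in shMLL1. The smallest decrease was then in shKDM4D, and the difference of changes in shNFIB was 0.12 with all expressed genes at -0.53. Each *Gapdh* ratio shifts every gene alike, so the distance to all expressed genes is as reported. At 1.5-fold the counts were 30 lower members in shNFIB and 39 in each of shControl, shKDM4D and shMLL1. At day 0 they were 1 higher and 1 lower in shKDM4D, 1 and 1 in shNFIB and 6 higher in shMLL1. At day 5 they were 4, 21 and 25 higher, and for differences of changes 25 in shNFIB and 7 in shMLL1. None of these counts at 1.5-fold was made over all expressed genes, so they cannot be read as particular to the members. With protein-coding genes only, the shares of expressed genes higher than 2-fold at day 5 were 1.55%, 5.08% and 4.79%. The fit of day 5 against day 0 paired by line, which was chosen after seeing the data, called 40 members lower, 39 with no block and 40 to 40 without each line in turn. A comparison between lines has no replicates to pair. Depth limits *Gins1*, *Orc1*, *Gins3* and *Rpa3* most, and clone, culture and library differences cannot be told apart from the knockdowns.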
